A study of Mus musculus with 6 samples.

Results

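Intermediate filament genes were followed in mouse hepatic stellate cells that were either proliferating with p53 knocked down or senescent. The set comprised 10 genes of cytoplasmic filaments: the type II keratins Krt5, Krt7 and Krt8, the type I keratins Krt14, Krt18 and Krt19, the type III proteins Vim, Des and Gfap, and the type IV protein Nes. A probe set, the group of probes that reads 1 transcript on an Affymetrix array, was a member when the platform annotation gave it to 1 of these symbols only. This rule took 21 of 45037 probe sets that are not controls, between 1 and 3 per gene. It left out 1 probe set annotated to several genes, of which a member is one. All cells were C57Bl/6 and carried 2 transgenes, CMV-rtTA and TRE-GFP-shRNA.p53.1224, with which doxycycline switches on a hairpin against p53 together with a green fluorescent protein. The CMV promoter is not specific to stellate cells. In the proliferating group (3 arrays) doxycycline was given at 1 ug/ml, and its label is p53 knockdown. The senescent group (3 arrays) is labelled as control and as expressing p53. Doxycycline, p53 knockdown and the growth state therefore differ together between the groups and cannot be told apart. The labels used here give no animal age.

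Intermediate filaments are the rope-like part of the cytoskeleton that lets cells bear stretch. Keratins polymerise only as pairs of a type I with a type II chain and are typical of epithelia, whereas the type III proteins can form filaments alone and are typical of mesenchymal, muscle and glial cells. Nestin, of type IV, joins filaments built by other proteins such as vimentin. In the liver, keratins 8 and 18 are the pair of hepatocytes, and bile ducts add keratins 7 and 19. In rodents desmin and glial fibrillary acidic protein are used as markers of stellate cells, vimentin is general to mesenchymal cells, and nestin is known from stellate cells after activation.

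The authors' RMA values, 1 log2 number for each probe set, come from a method that gives all arrays nearly 1 distribution. The medians of the 6 arrays lay between 6.15 and 6.19. Having 3 arrays per group limits the precision. Since no label ties an array to an animal or a culture of its own, the spread behind each p-value may be technical. Background was set at 5.57, the 95th percentile of the average levels of 44 olfactory receptor probe sets. Differences are proliferating minus senescent, tested with limma, and a probe set was called at a Benjamini-Hochberg adjusted p under 0.05. Of all probe sets 5579 (12.4%) were called, 2880 (6.39%) higher and 2699 (5.99%) lower in proliferating cells. The total was 3589 without proliferating replicate 2, 3258 without proliferating replicate 3, 3406 without senescent replicate 1 and 3688 without senescent replicate 3. Spike-in transcripts added before labelling read 10.61 on average on the proliferating arrays and 11.21 on the senescent arrays, a difference of -0.60 ± 0.17 (log2, SE, n = 3 per group). Scaling to them moved the median change of all probe sets to 0.59, so every change below is relative to the bulk of the probe sets. The signal at the 3' end over that at the 5' end, which rises as RNA degrades, was 0.080 in proliferating and 0.210 in senescent cells for Gapdh (difference -0.13 ± 0.06) and 0.447 in proliferating and 0.531 in senescent cells for Actb (-0.084 ± 0.051, log2 ratios, SE, n = 3 per group). The part of RNA quality in the changes was not tested.

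In proliferating cells the RNA of keratin 18, keratin 19 and nestin was lower and that of keratin 7 was higher than in senescent cells, while no probe set of the other 6 genes was called. Krt18 showed the largest difference of the 21, 2.96-fold lower. The change was 1.50-fold for Krt19, 1.61-fold for Krt7, and 1.48-fold and 1.82-fold for the called probe sets of Nes. Of the 21 probe sets 1 was called higher and 4 lower, against 6.39% and 5.99% of all probe sets. The median log2 change of the 21 was -0.11, and that of all probe sets was -0.0021. The 3 proliferating arrays lay wholly outside the senescent range for 8 of the 21, 1 above and 7 below, where 31.0% of all probe sets did so, 16.0% above and 14.9% below. After scaling to the spike-ins Krt18 stayed lower (-0.97, log2) and Krt7 higher (1.29), but Krt19 and the brightest Nes probe set turned to 0.01 and 0.03. Relative to the median of all probe sets in that scaling these 4 changes were -1.56, 0.69, -0.58 and -0.56.

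**Figure D1:**
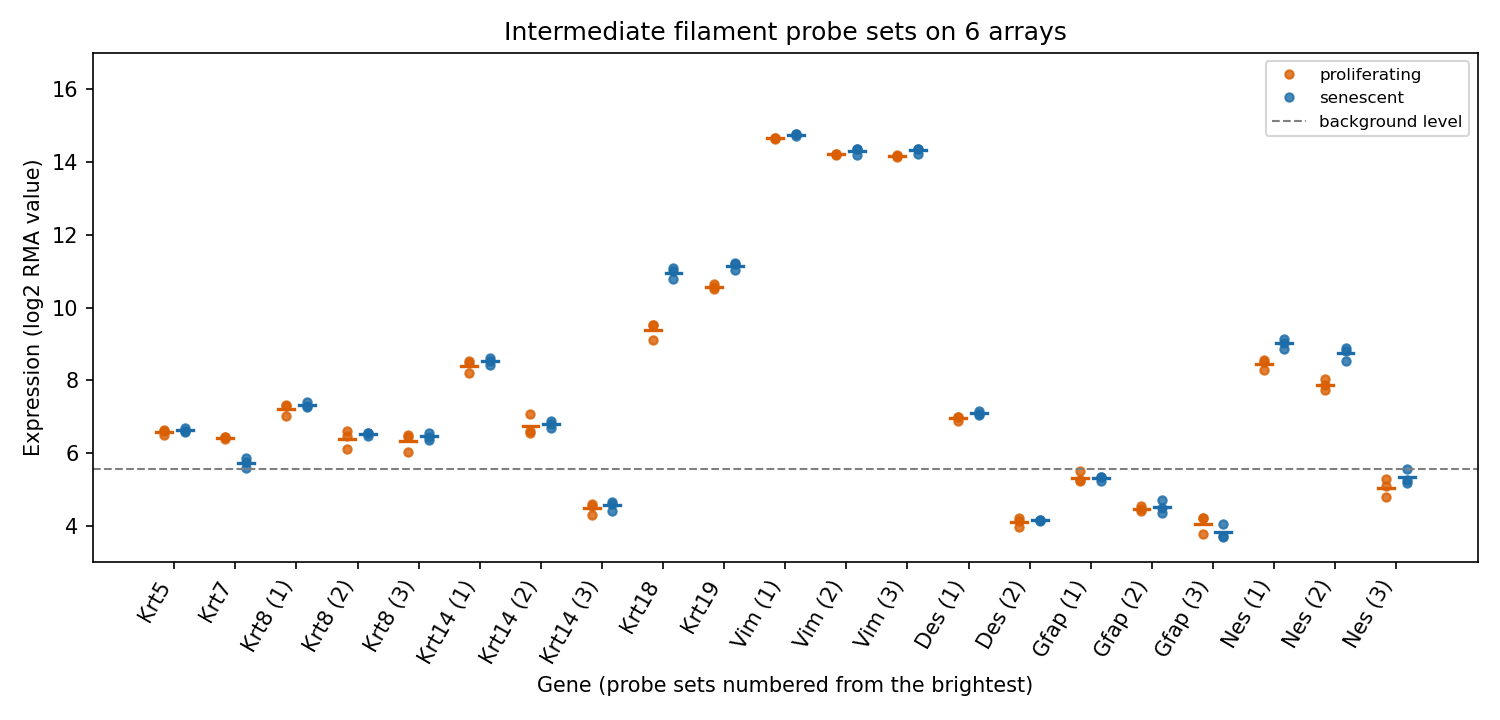
Expression (log2 RMA value, y axis) of the 21 probe sets (x axis) on each array, proliferating in orange to the left of senescent in blue, with a line at each group's mean of 3 arrays and a dashed line at the background level of 5.57. Vim lies at the top of the scale in both groups, all 3 probe sets of Gfap lie below background, and Krt18 shows the widest gap between the groups.

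Keratin 8 and keratin 18, the type II and type I partners of simple epithelia, differed between the groups to unlike degrees. Krt18 read 9.12, 9.53 and 9.53 on the proliferating arrays, against 11.10, 10.77 and 11.00 on the senescent arrays. No proliferating array came within 1 log2 unit of a senescent one. The mean was 9.39 ± 0.24 in proliferating and 10.96 ± 0.17 in senescent cells (SD, n = 3 each), a log2 change of -1.57 ± 0.14 (SE) with an adjusted p of 0.000417. A fall at least as large was seen in 0.187% of all probe sets. Krt8 in its brightest probe set read 7.02, 7.31 and 7.32 on the proliferating arrays, against 7.26, 7.31 and 7.41 on the senescent arrays. The groups overlapped, and proliferating replicate 1 was the lowest of the 6. Its log2 change was -0.11, with a 95% interval of -0.34 to 0.12 that leaves out a fall of the size of Krt18 (adjusted p = 0.574). The other 2 Krt8 probe sets had changes of -0.14 and -0.13, also not called, and all 3 are of types that can read several transcripts.

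The difference between the 2 changes was tested within arrays. The brightest Krt8 value minus the Krt18 value was -2.17 ± 0.07 on proliferating and -3.63 ± 0.19 on senescent arrays (SD, n = 3 each), which compares changes and not levels of the probe sets. It was higher in 3 of 3 proliferating arrays, by 1.46 ± 0.11 (SE). An exact permutation test, two-sided, gave p = 0.1, the smallest that 3 arrays against 3 can give, and 0.15 when adjusted over the 3 keratin pairs tested.

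The promoters of these genes are printed because the partners Krt8 and Krt18 lie on 1 chromosome and differed in their change, while Krt7 and Nes were called in opposite directions. RefSeq windows of build GRCm38.p6 matched 9 of the 10 genes, all but Krt19. Each sequence is the 250 bases before the annotated start of transcription, with capitals at every match, on either strand, to GGGCGG (the GC box) or CAGGTG (an E-box that Snail family repressors can bind).
Krt18, chr15:102027966-102028215, plus strand: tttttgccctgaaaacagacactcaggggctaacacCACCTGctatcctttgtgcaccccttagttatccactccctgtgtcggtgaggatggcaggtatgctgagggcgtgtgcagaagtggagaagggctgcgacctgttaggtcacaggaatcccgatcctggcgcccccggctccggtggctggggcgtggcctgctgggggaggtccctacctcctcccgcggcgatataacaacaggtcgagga
Krt8, chr15:102004343-102004592, minus strand: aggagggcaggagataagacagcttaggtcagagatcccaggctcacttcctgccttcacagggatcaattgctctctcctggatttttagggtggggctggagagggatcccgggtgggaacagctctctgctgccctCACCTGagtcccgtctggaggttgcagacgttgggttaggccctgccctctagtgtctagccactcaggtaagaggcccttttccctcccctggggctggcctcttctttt
Krt7, chr15:101412153-101412402, plus strand: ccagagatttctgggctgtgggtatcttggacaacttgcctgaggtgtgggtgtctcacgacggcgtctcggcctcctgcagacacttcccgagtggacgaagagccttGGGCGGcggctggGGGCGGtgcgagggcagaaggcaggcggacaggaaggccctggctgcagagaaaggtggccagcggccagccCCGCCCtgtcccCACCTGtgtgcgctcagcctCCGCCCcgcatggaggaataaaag
Nes, chr3:87970843-87971092, plus strand: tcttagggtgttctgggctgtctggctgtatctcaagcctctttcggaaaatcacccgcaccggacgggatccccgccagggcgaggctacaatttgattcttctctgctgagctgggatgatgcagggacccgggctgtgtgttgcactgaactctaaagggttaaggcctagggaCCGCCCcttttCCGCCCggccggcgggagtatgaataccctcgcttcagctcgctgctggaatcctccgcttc
The Krt18 and Krt8 windows each held 1 E-box, at positions -214 to -209 and -111 to -106 from the start, and no GC box. The Krt7 window held 4 GC boxes and 1 E-box, at -44 to -39. The Nes window held 2 GC boxes and no E-box. Over 32851 windows of the same length, 32.7% held a GC box and 17.2% an E-box. TATAAA (12.4% of all windows) and TGANTCA, the AP-1 motif (6.75%), had no match in these 4 windows. Nor did RRRCWWGYYY, the half-site of p53 (7.13%), where R is A or G, W is A or T and Y is C or T. Of the windows not printed, that of Krt5 held a p53 half-site at -95 to -86 and an E-box at -128 to -123. That of Des held GC boxes at -87 to -82 and -69 to -64, and that of Vim held TATAAA at -32 to -27. Matches of the motifs did not overlap here, and they are descriptions of letters, not binding sites.

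Keratin 19, a small type I keratin of bile ducts and other simple epithelia, was lower in proliferating cells. Its probe set read 10.64, 10.50 and 10.56 on the proliferating arrays, against 11.22, 11.03 and 11.20 on the senescent arrays. The groups did not overlap, with senescent replicate 2 nearest to the proliferating arrays. The mean was 10.57 ± 0.07 in proliferating and 11.15 ± 0.11 in senescent cells (SD, n = 3 each), a log2 change of -0.58 ± 0.09 (SE, adjusted p = 0.0043). Keratin 7, the type II keratin of ducts and glands, went the other way. It read 6.43, 6.45 and 6.39 on the proliferating arrays, against 5.85, 5.60 and 5.76 on the senescent arrays. All senescent values lay close above the background of 5.57 and none reached a proliferating value. The means were 6.43 ± 0.03 in proliferating and 5.73 ± 0.13 in senescent cells (SD, n = 3 each), and the log2 change was 0.69 ± 0.09 (SE, adjusted p = 0.00221). The only probe set of Krt7 is of the _a_at type, which reads several transcripts of a gene. Krt7 minus Krt19 within arrays was -4.14 ± 0.08 on proliferating and -5.42 ± 0.04 on senescent arrays, a difference of 1.27 ± 0.05 (SE, n = 3 each), higher in 3 of 3 proliferating arrays, with an exact two-sided permutation p of 0.1 and 0.15 after adjustment.

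**Figure D2:**
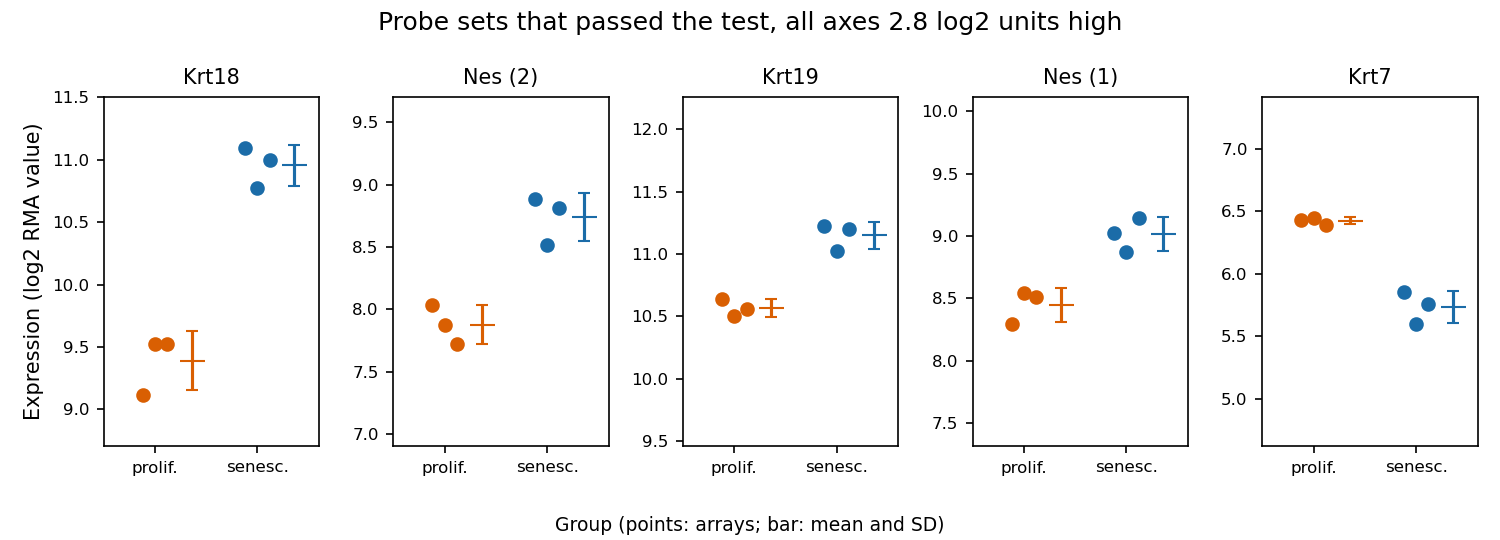
Expression (log2 RMA value) of the 5 called probe sets in 3 proliferating (orange) and 3 senescent (blue) arrays, with the mean and SD beside the points and axes of equal height. Every proliferating point lies below every senescent point for Krt18, Krt19 and both Nes probe sets, and above for Krt7.

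Keratins 5 and 14, the pair of the basal layer of skin and other stratified epithelia, gave no call. Krt5 read 6.60, 6.63 and 6.50 on the proliferating arrays, against 6.69, 6.58 and 6.60 on the senescent arrays. These ranges overlap, and the log2 change was -0.05 with a 95% interval of -0.23 to 0.13 (limma, adjusted p = 0.771). Krt14 in its brightest probe set read 8.20, 8.54 and 8.48 on the proliferating arrays, against 8.62, 8.41 and 8.54 on the senescent arrays. It too overlapped (log2 change -0.11, 95% interval -0.37 to 0.14), and this _x_at probe set can also read related genes. The second Krt14 probe set had a change of -0.05, and the third lay below background on all 6 arrays. Krt5 minus Krt14 differed by 0.07 ± 0.12 (SE, n = 3 each), with an exact two-sided permutation p of 0.8 before and after adjustment over the 3 pairs.

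Vimentin, the main filament protein of mesenchymal cells, was among the brightest transcripts of both groups. The probe set read highest gave 14.67, 14.64 and 14.66 on the proliferating arrays, against 14.78, 14.76 and 14.72 on the senescent arrays, and 99.9% of all probe sets were dimmer. The proliferating arrays lay below the senescent arrays here and in 1 of the other 2 probe sets. The 3 log2 changes were small, -0.10, -0.09 and -0.15, and none was called (adjusted p of 0.465, 0.563 and 0.293). The 95% interval of the brightest was -0.26 to 0.06.

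Desmin, the filament protein of muscle and a stellate cell marker in rodents, was dim. Its brighter probe set read 7.01, 6.88 and 6.98 on the proliferating arrays, against 7.05, 7.08 and 7.16 on the senescent arrays. Each proliferating array lay below each senescent array, but the log2 change of -0.14 (95% interval -0.32 to 0.04) was not called (adjusted p = 0.314). The other Des probe set was below background on all 6 arrays, with a mean of 4.11 in proliferating and 4.15 in senescent cells. Gfap, the glial filament gene, was below background in all 3 of its probe sets on every array. Its brightest probe set averaged 5.33 ± 0.15 in proliferating and 5.31 ± 0.06 in senescent cells (SD, n = 3 each), so no fold is given.

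Nestin was lower in proliferating cells in both probe sets that lay above background. The brighter one read 8.30, 8.55 and 8.51 on the proliferating arrays, against 9.03, 8.87 and 9.14 on the senescent arrays. The second read 8.04, 7.87 and 7.72 on the proliferating arrays, against 8.89, 8.52 and 8.81 on the senescent arrays. Neither pair of ranges overlapped. The log2 changes were -0.56 ± 0.10 and -0.86 ± 0.12 (SE, n = 3 per group), with adjusted p of 0.0109 and 0.00365. The third probe set lay below background on all 6 arrays and was not called (log2 change -0.29, adjusted p = 0.277).

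**Figure D3:**
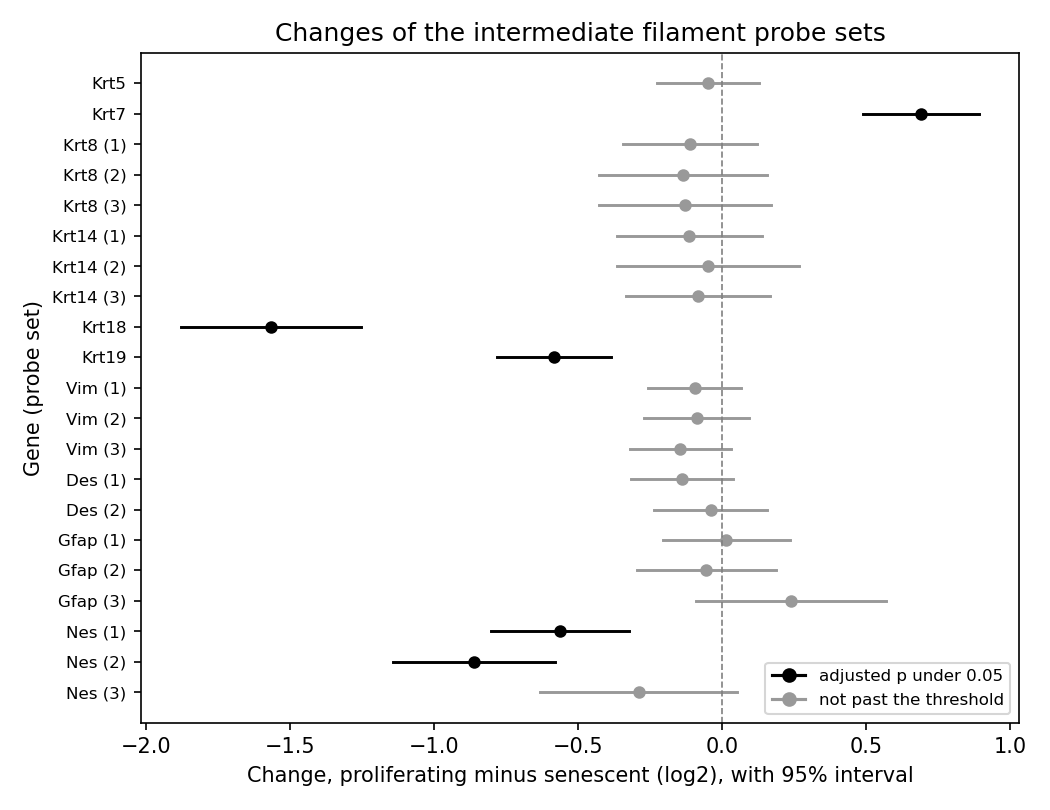
Log2 change (proliferating minus senescent, x axis) of the 21 probe sets with 95% intervals from limma, black where the adjusted p was under 0.05. Krt18 at -1.57 stands farthest from 0, Krt7 at 0.69 is the only called change above 0, and the intervals of Krt5, Krt8, Krt14, Vim, Des, Gfap and the third Nes probe set include 0. All values move right by 0.60 after scaling to the spike-ins.

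Related genes were read from 1 probe set each, the brightest, in a fit over 18193 genes, of which 3645 (20.0%) were called, 1919 (10.5%) higher and 1726 (9.49%) lower in proliferating cells. The median log2 change of all genes was 0.0018. Of 42 other keratin genes none was called higher and 2 were called lower, and 27 had mean levels at or below background. Krt80, a type II keratin, averaged 7.90 ± 0.07 in proliferating and 8.32 ± 0.07 in senescent cells (SD, n = 3 each), a log2 change of -0.43 ± 0.07 (SE, adjusted p = 0.00501). It turned to 0.17 after scaling to the spike-ins. Krt20 lay below background on all 6 arrays, so its call carries no fold, and it ended without proliferating replicate 1 or 3 or senescent replicate 1 or 3 (-0.39 to -0.25 over all 6 such fits). After scaling to the spike-ins 37 of the 42 were higher and none lower, by limma. That scaling called 37047 of all 45037 probe sets, most of them higher in proliferating cells. This count and the spike-in counts of the lists below therefore do not test a list against the other genes. Among 9 other cytoplasmic filament genes none was called and none had an unadjusted p under 0.05. One was called lower when the probe sets of a gene were averaged. The brightest of them, Synm, which encodes synemin, had a log2 change of 0.24, and Sync, which encodes syncoilin, one of -0.16.

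Linker genes, which tie intermediate filaments to junctions, integrins and other cytoskeletal fibres, were more often lower than higher in proliferating cells. Of 13 measured, 6 were lower and 1 higher, against 9.49% and 10.5% of all genes, with a median log2 change of -0.26. Scaled to the spike-ins, 6 were higher and 1 lower. Itga6, an integrin chain of hemidesmosomes, read 8.98, 8.15 and 8.11 on the proliferating arrays, against 9.95, 10.15 and 9.86 on the senescent arrays. It was 2.98-fold lower (log2 change -1.58 ± 0.22, SE, adjusted p = 0.00173). Itgb4, an integrin chain also on the list, averaged 5.63 in proliferating and 5.73 in senescent cells, close to the background of 5.57. Its log2 change of -0.11 was not called (limma, adjusted p = 0.459). Pkp1, a desmosomal plaque protein, was 1.57-fold lower, and Dsp, which anchors filaments at desmosomes, was also 1.57-fold lower. The call of Dsp ended without senescent replicate 1 or 2 (-0.80 to -0.50 with each array left out in turn), and its dimmest probe set had a change of 0.02. Plec, Dst and Macf1, chosen after their values were seen, encode the large cytolinkers plectin, dystonin and the microtubule-actin crosslinker. Plec read 12.71, 12.77 and 12.80 on the proliferating arrays, against 13.17, 13.17 and 13.31 on the senescent arrays, a log2 change of -0.45 ± 0.07 (adjusted p = 0.00348). Dst had a change of -0.52 and was called in all 4 of its probe sets. Macf1 had -0.33 but about -0.01 and 0.07 in its other probe sets, and its call ended without proliferating replicate 1 or 3 or senescent replicate 2 or 3 (-0.38 to -0.27 with each array left out in turn). Ppl, periplakin of the cornified envelope, went the other way (log2 change 0.62 ± 0.08, adjusted p = 0.00127).

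Genes whose products phosphorylate, fold, bind or cut intermediate filaments changed in both directions. Of 21 measured, 3 were higher and 4 lower in proliferating cells, against 10.5% and 9.49% of all genes, with a median of -0.0043. The 3 that were higher encode kinases of mitosis known to phosphorylate vimentin: Aurkb (log2 change 0.73 ± 0.12), Plk1 (0.63 ± 0.13) and Cdk1 (0.44 ± 0.08). The small heat shock proteins, which act as chaperones of filaments, were lower. Cryab, which encodes alpha B crystallin, read 12.83, 12.87 and 12.82 on the proliferating arrays, against 13.62, 13.66 and 13.69 on the senescent arrays. It was 1.76-fold lower (adjusted p = 0.000143), and Hspb1 was 1.61-fold lower (log2 change -0.69 ± 0.07, adjusted p = 0.000587). The calpain genes Capn1 and Capn2, proteases that can cleave desmin and vimentin, had changes of -0.62 and -0.29. The call of Capn2 ended when any array but proliferating replicate 2 was left out (-0.32 to -0.24 over all 6 such fits). After scaling to the spike-ins 14 of the list were higher and none lower, by limma.

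Epithelial junction and regulator genes were called about as often as genes in general. Of 22 measured, 2 were higher and 3 lower in proliferating cells, against 10.5% and 9.49% of all genes, with a median of 0.0053, and 9 had mean levels at or below background. Cldn1, a tight junction claudin, read 9.19, 9.68 and 9.62 on the proliferating arrays, against 7.34, 7.25 and 6.98 on the senescent arrays. It was 4.96-fold higher (adjusted p = 5.77e-05), and its 3 dimmer probe sets had changes of 1.04, 0.46 and -0.01. Cdh3, P-cadherin, was 1.41-fold higher, while Cdh1, E-cadherin, had a change of 0.58 ± 0.21 that was not called (adjusted p = 0.0984). Cdh1 read 9.56, 10.46 and 10.41 on the proliferating arrays, against 9.55, 9.62 and 9.52 on the senescent arrays. Esrp2, an epithelial splicing regulator, and Klf5, a transcription factor of epithelia, both had changes of -0.55, for Klf5 in 1 of 3 probe sets. Ovol2 was called lower but lay below background on all 6 arrays, and its call ended when any array but senescent replicate 2 was left out (-0.34 to -0.24 over all 6 such fits). Scaled to the spike-ins, 17 of the list were higher and none lower, by limma.

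Mesenchymal regulators and adhesion genes were more often higher. Of 13 measured, 5 were higher and 1 lower in proliferating cells, against 10.5% and 9.49% of all genes, with a median of 0.11. Snai2, a Snail family repressor of epithelial genes, read 11.58, 11.69 and 11.66 on the proliferating arrays, against 10.56, 10.58 and 10.32 on the senescent arrays. It was 2.22-fold higher (adjusted p = 0.000121). Cdh11, Prrx1, Tcf4 and Twist2 had changes of 0.87, 0.74, 0.60 and 0.41, and Foxc2, a forkhead factor, was 2.09-fold lower. After scaling to the spike-ins 12 of the 13 were higher and 1 lower. Snai1, Zeb1, Zeb2, Twist1, Cdh2, Fn1 and S100a4 were not called.

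The labelled cell type was checked against marker genes. Of 15 measured stellate cell markers 10 had mean levels above background, with Col1a2, Acta2, Lox and Dcn the brightest, and 4 were below background on every array, Lrat and Reln among them, as was Gfap. Des, given above, was dim. All 9 markers of mesothelium, the keratin-bearing lining of the liver surface, had mean levels above background. Upk1b averaged 12.90 in proliferating and 13.33 in senescent cells, and Upk3b, not called, 12.61 in proliferating and 12.42 in senescent cells. The summed level of the mesothelial list (log2 of the sum of linear values) was 14.94 to 15.07 on proliferating arrays and 14.94 to 14.98 on senescent arrays. Of its members 4 were higher in proliferating cells, Lrrn4, Wt1, Gpm6a and Bnc1 (1.80, 1.11, 0.57 and 0.55), and 2 lower, Msln and Upk1b (-0.79 and -0.43). Scaled to the spike-ins, 7 were higher and none lower, by limma. The summed level of the stellate list was 16.57 to 16.67 on proliferating and 16.41 to 16.44 on senescent arrays. In it Pdgfrb, Hand2, Dcn, Col1a1 and Col1a2 were higher (1.30 to 0.49) and Ecm1 was lower (-1.15). Beside the calls of both lists, 10.5% of all genes were called higher and 9.49% lower. After scaling to the spike-ins 14 of the 15 were higher and 1 lower. Among 10 portal fibroblast markers 9 had mean levels above background. The summed level of that list was 13.55 to 13.73 on proliferating and 13.93 to 14.14 on senescent arrays, and the share of such cells was not tested. In bulk RNA fewer cells of a type and less RNA per cell cannot be told apart, and the part of mesothelial cells in the keratin values was not tested.

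Markers of stratified epithelium changed in part. Of 12 measured keratinocyte markers 4 were lower and 1 higher in proliferating cells, against 9.49% and 10.5% of all genes. The other 7 were not called, and 5 of the 12 were below background on every array. Perp, a desmosomal membrane protein, read 7.80, 8.12 and 8.42 on the proliferating arrays, against 10.82, 10.85 and 10.79 on the senescent arrays. Crct1, Ivl and Sbsn, genes of the cornified layer, were also lower (log2 changes -2.67, -2.66 and -0.80). Scaled to the spike-ins, 3 of the list were lower and 7 higher. The summed level of the list was 11.58 to 12.01 on proliferating and 12.82 to 12.99 on senescent arrays. Lor, loricrin, had a change of 0.39 whose call ended when any array but proliferating replicate 3 was left out (0.34 to 0.49 over all 6 such fits). The part of such cells in the keratin values was not tested. Hepatocyte markers, given as the other keratin-bearing cells of the liver, had a summed level of 8.68 to 8.93 on proliferating and 8.65 to 8.90 on senescent arrays, with Alb, Cps1, Ass1, Cyp2e1 and Fabp1 below background on every array. Of the 8 measured bile duct markers 4, Cftr, Onecut1, Prom1 and Cldn4, were below background on every array, and the summed level was 13.62 to 13.70 on proliferating and 13.87 to 14.02 on senescent arrays. Most of that sum came from Cd24a, which averaged 13.60 in proliferating and 13.89 in senescent cells.

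**Figure D4:**
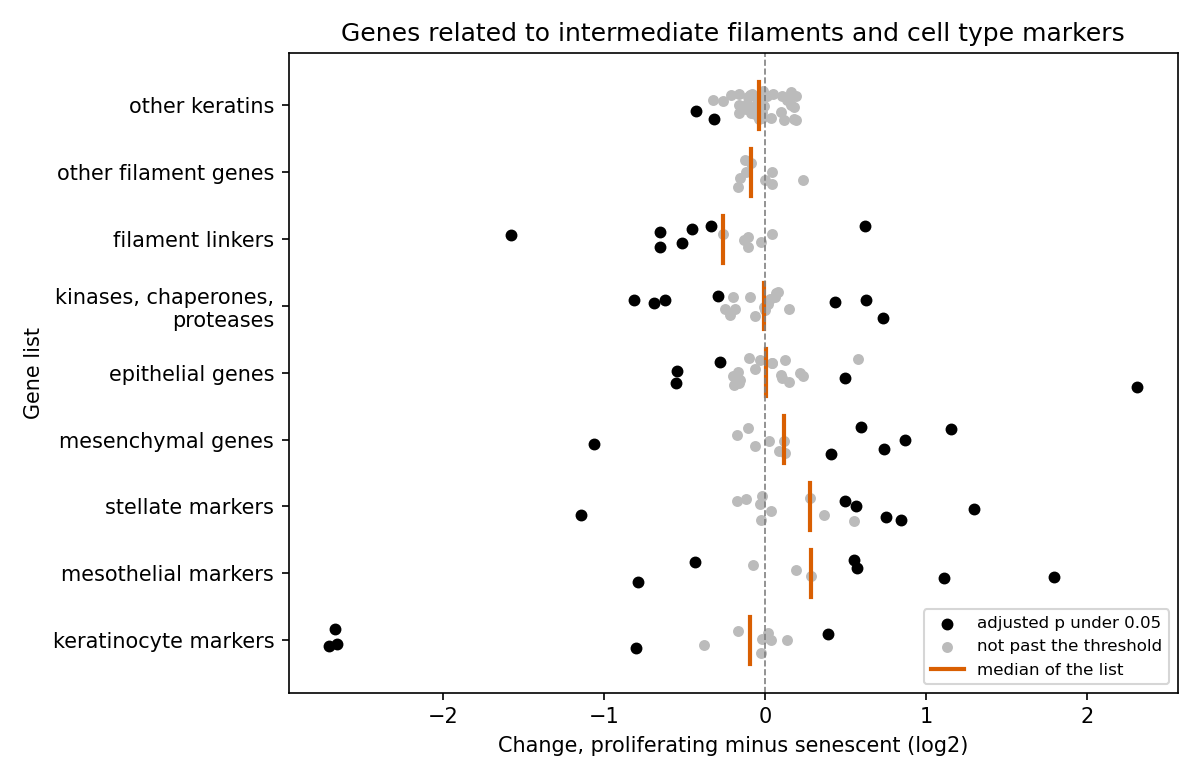
Log2 change (proliferating minus senescent, x axis) of each measured gene in 9 lists (y axis), black where the adjusted p over all genes was under 0.05, with an orange line at the list median. Other keratins cluster near 0, most called linkers lie below 0, and Perp, Crct1 and Ivl stand apart at the left. All points move right by 0.60 after scaling to the spike-ins.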

How the data were processed

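RNA of 3 proliferating and 3 senescent cell samples was measured on Affymetrix arrays, and the deposited log2 values are RMA values per probe set, per the submitters' processing notes. The sources used here give neither version nor filters. RMA removes any shift common to most genes. Groups were taken from the sample titles. Symbols came from the platform annotation and were updated by Entrez number through a RefSeq table (GRCm38.p6), which held 34754 of 34958 probe sets with 1 symbol. No build is stated for the probes. Of the 21 member probe sets, 10 carry the suffix _a_at, _s_at or _x_at for probes shared by several transcripts.

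All 45037 probe sets that are not controls were fitted with lmFit and eBayes (limma 3.58.1, R 4.3.3) without covariates, adjusted by Benjamini-Hochberg over all of them. Lists used the brightest probe set of each of 18193 genes. The fit over all probe sets was tested on simulated data. Pairs of keratins were compared with an exact permutation test (SciPy 1.17.1). No set test was made. Same-numbered replicates did not pair, since their deviations from the group means correlated at 0.112, -0.106 and -0.162. The arrays name no batch. Alternatives covered scaling, filter, variance model, probe sets per gene, replicate block and each array left out. The text names all members, up to 4 called genes per list by size, the 2 brightest of a list with fewer than 2 calls, and all calls in a direction where there were 5 or fewer. Snai1, Zeb1, Zeb2, Twist1, Cdh2, Fn1, S100a4, Cdh1, Itgb4, Acta2, Lox, Upk3b and marker genes at background were named after their values were seen. The members and lists were chosen with earlier results of these data known.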

Additional observations from a re-analysis of the deposited data

How the results depend on the processing

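The calls of Krt18, Krt19, Krt7 and both Nes probe sets held under median centring, the background filter, trended and robust variances, 1 brightest or averaged probe sets per gene where measured, and each array left out, when Krt18 ranged from -1.66 to -1.43 and Krt7 from 0.62 to 0.75 (log2). The Krt7 probe set is dropped without _s_at, _x_at and _a_at probe sets. With the replicate block the members kept 5 called probe sets and all probe sets had 4229 calls against 5579. The samples share only a number. With the block the pair differences were 1.46, 1.27 and 0.07, which in groups of equal size cannot differ from those without it. Their exact permutation p was 0.25, 0.25 and 1.0, where 0.25 is the smallest possible. Without proliferating replicate 1 the difference of Krt5 and Krt14 was -0.048, again without a call. All probe sets gave 3258 to 5298 calls with 1 array left out, 3645 over genes by their brightest probe set and 3225 over gene means, where fewer features were tested.

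Scaling to the spike-ins changed the most. It gave 37047 calls over all 45037 probe sets, most of them higher in proliferating cells. Among the members 17 were called (median change 0.486), and 168 of the listed genes against 52. Every probe set then carries the same array offsets, so these p-values do not test the relative change. The direction turned for Krt5 (0.55), Krt8 (0.49, 0.46 and 0.47), Krt14 (0.48, 0.55 and 0.51), Krt19 (0.013), Vim (0.50, 0.51 and 0.45), Des (0.46 and 0.56), Gfap (0.54 in 1 probe set) and Nes (0.034 in the brightest and 0.31 in the dimmest probe set, with -0.27 and adjusted p = 0.219 in the second). It also turned for Capn2 (0.31), Cd24a (0.31), Csf1r (0.25), Dst (0.080), Esrp2 (0.043), Fbln2 (0.10), Klf5 (0.051), Krt20 (0.28), Krt80 (0.17), Lmod1 (0.12), Macf1 (0.26), Ovol2 (0.32), Plec (0.14) and Upk1b (0.16). Of the 52 called list genes, 9 lost the call when 1 array was left out. A probe set below background on every array has no fold here, whatever its call.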

Other observations

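Markers of the remaining cell types are given as counts from limma over all genes, of which 10.5% were called higher and 9.49% lower in proliferating cells. Of 6 smooth muscle markers 5 had an unadjusted p under 0.05, and 2 were called, both lower in proliferating cells: Lmod1, leiomodin, averaged 7.15 ± 0.10 in proliferating and 7.63 ± 0.06 in senescent cells (SD, n = 3 each), and Myh11 was below background on every array. The median log2 change of that list was -0.42, and its summed level was 13.27 to 13.68 on proliferating and 13.80 to 13.91 on senescent arrays. Of 10 portal fibroblast markers Thy1 and Fbln2, surface and matrix glycoproteins, were lower by 0.79 and 0.50, and Cd34 had a change of 0.27 whose call ended when any array but senescent replicate 3 was left out (0.22 to 0.32 over all 6 such fits).

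Of 8 endothelial markers 6 were below background on every array. The brightest, Kdr, had a change of -0.15 and was not called. The 1 call was lower in proliferating cells: Cdh5, the endothelial cadherin, averaged 5.02 in proliferating and 5.74 in senescent cells. It lay below background on all 3 proliferating arrays, and the dimmer Cdh5 probe set had a change of 0.12. Of 8 macrophage markers Csf1r, the receptor of a macrophage growth factor, had a change of -0.35, a call that ended without proliferating replicate 2 or senescent replicate 1 (-0.39 to -0.32 over all 6 such fits) and when the probe sets of a gene were averaged. The brightest marker of that list, Cd14, had a change of 0.18 and was not called. The bile duct list held 1 call, Cd24a at -0.29, which ended when any array but senescent replicate 3 was left out (-0.33 to -0.25 over all 6 such fits), and its second brightest gene, Epcam, had a change of 0.24 that was not called. No hepatocyte marker was called by limma and none had an unadjusted p under 0.05, and the brightest were Ttr (0.11) and Apoa1 (0.26). Of 5 glial markers, of interest because Gfap and Nes are known from glia and neural progenitors, none was called, 1 had an unadjusted p under 0.05, and the brightest, Mbp and Sox10, had changes of 0.06 and 0.12. One glial marker was called higher when the probe sets of a gene were averaged. Scaled to the spike-ins, limma called no gene of these 7 lists lower, and called higher 1 smooth muscle, 8 portal fibroblast, 7 endothelial, 5 macrophage, 6 bile duct, 9 hepatocyte and 5 glial markers. Over all 45037 probe sets that scaling gave 37047 calls, most of them higher, so these counts do not test the lists against other genes.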
